A study of Homo sapiens with 6 samples.

Results

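The axonemal dynein heavy chain genes were examined in RNA sequencing (RNA-seq) data of human HEK-293T cells with and without THUMPD1. The 10 genes are DNAH1, DNAH2, DNAH5, DNAH6, DNAH7, DNAH8, DNAH10, DNAH11, DNAH14 and DNAH17, out of 58870 genes in the table. They were chosen by symbol, starting from the large difference of DNAH6 between genotypes and adding its paralogs, so their differences between genotypes are given as a description, without a test. The table holds 13 axonemal heavy chain genes in all, and DNAH3, DNAH9 and DNAH12 are the other 3. HEK-293T is an immortalized human embryonic kidney line. Wild-type (WT) cells, genotype Thumpd+/+, were compared with THUMPD1 KO cells, genotype Thumpd-/-, which were made in this line with CRISPR-Cas9 and single-cell sorted, so that the genotype cannot be told apart from the history of a clone. Each genotype had 3 libraries of ribosomal RNA-depleted total RNA, and the labels do not say whether these came from separate cultures, so p-values measure the spread between these libraries, which may be technical.

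Axonemal dyneins are the motors that bend motile cilia and sperm flagella. Their heavy chains are very large proteins that hydrolyse ATP and step along microtubules, and they are arranged in outer arms, which drive the beat, and inner arms, which shape it. Intermediate and light chains attach the arms to the axoneme, and a set of cytosolic assembly factors builds them beforehand. The genes are best known from airway epithelium, brain ventricle lining and testis, where loss of members such as DNAH5, DNAH11 or DNAH1 causes primary ciliary dyskinesia or male infertility. HEK-293T cells are not multiciliated, and a primary cilium, where one forms, has no dynein arms.

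Library totals ranged from 32225646 to 44099898 expected counts. Levels are given as CPM, the count of a gene scaled to the total of its library, and 1 CPM stood for 32.2 to 44.1 read pairs. THUMPD1 was at 13.6% of its WT level in THUMPD1 KO, with no overlap between genotypes (exact permutation test over 20 groupings, two-sided, p = 0.1, the smallest that 3 against 3 libraries allow). The filter, a minimum of 1 CPM in 3 or more libraries, left 15088 genes. Of these limma-voom called 26.7% at a threshold of 0.05 on the adjusted p, 13.7% as higher in THUMPD1 KO and 13.0% as lower. All 6 genes of a short list known from HEK-293T cells (VIM, KRT8, KRT18, NEFL, NEFM and PAX2) were detected in every library, with 2 higher and 2 lower in THUMPD1 KO. The largest of these changes was that of the neurofilament gene NEFM, from 35.3 CPM ± 8.47 to 5.33 CPM ± 1.20 (SD, n = 3 each; limma-voom adjusted p = 1.301e-05). The median log2 fold change of all genes tested was 0.016.

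The promoter stretches of 4 members are shown first, because cilium genes are often controlled through the X-box, an inverted repeat bound by RFX transcription factors, and 3 members hold an inverted repeat of the letters GTTGC and GCAAC in the window searched. Sequences are those of RefSeq on GRCh38.p14, 5′ to 3′ on the strand of the gene, upstream of the first base annotated as exon in GENCODE 44. Capitals mark GTTGC and its reverse complement GCAAC, the arms of the repeat. The stretch from DNAH6 that holds its repeat is given on its own line, since it lies inside the first exon of the GENCODE model.
DNAH6 (chr2:84516248-84516454, plus strand): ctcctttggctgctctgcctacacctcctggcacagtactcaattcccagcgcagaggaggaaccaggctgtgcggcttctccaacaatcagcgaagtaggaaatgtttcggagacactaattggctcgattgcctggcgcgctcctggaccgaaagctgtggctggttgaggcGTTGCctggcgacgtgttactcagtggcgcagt
DNAH6, repeat (chr2:84516468-84516497, plus strand): ccagctgGTTGCtacgcaGCAACaggaaac
DNAH1 (chr3:52316069-52316318, plus strand): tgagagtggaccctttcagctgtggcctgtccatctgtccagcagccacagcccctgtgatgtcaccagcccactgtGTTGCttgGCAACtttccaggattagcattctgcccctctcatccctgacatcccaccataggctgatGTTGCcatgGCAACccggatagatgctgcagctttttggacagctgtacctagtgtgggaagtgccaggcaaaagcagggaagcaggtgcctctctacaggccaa
DNAH7 (chr2:196068838-196069087, minus strand): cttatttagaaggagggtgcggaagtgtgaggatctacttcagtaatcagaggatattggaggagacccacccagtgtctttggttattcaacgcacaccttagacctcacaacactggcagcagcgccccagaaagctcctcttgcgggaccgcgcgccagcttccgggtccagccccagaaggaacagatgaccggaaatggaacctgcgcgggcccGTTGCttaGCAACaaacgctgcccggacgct
DNAH11 (chr7:21542789-21543038, plus strand): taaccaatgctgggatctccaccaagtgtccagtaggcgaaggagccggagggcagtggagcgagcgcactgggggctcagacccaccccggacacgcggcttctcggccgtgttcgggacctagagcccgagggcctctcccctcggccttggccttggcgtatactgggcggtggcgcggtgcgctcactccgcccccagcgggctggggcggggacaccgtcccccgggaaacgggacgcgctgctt

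The search letters were GTTGC followed by GCAAC after 3 to 6 bases, a pattern that reads the same on both strands. Letters and spacing were chosen after the windows had been looked at, so a match is not called an X-box. The search covered 300 bases around each RefSeq start site, 250 of them upstream. DNAH1 held 2 such repeats, GTTGCttgGCAAC and GTTGCcatgGCAAC, at bases -173 to -161 and -105 to -92 before the start site. DNAH7 held GTTGCttaGCAAC at -31 to -19, and DNAH6 held GTTGCtacgcaGCAAC at -23 to -8, with a spacer of 6 bases where the others have 3 or 4. Of 35116 promoter windows of all genes, 151 (0.43%) held the pattern. The shorter pattern GTTGCC, on either strand, overlaps this pattern in part and was found in 12.2% of all windows and in the windows of DNAH1, DNAH2, DNAH6 and DNAH10. A window was found for 9 of the 10 members, all but DNAH17. No match to either pattern was found for DNAH5, DNAH8, DNAH11 and DNAH14. For DNAH5 and DNAH14 the RefSeq start site lies 67130 and 33392 bases inside the GENCODE gene, so their windows cover an internal start. CG dinucleotides were rare in the windows of DNAH1 and DNAH5, with 2 each, against 18 in DNAH6 and 30 in DNAH11. A match is a description of letters, and binding was not measured.

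Among the members DNAH6 stood apart by its difference between genotypes. DNAH6 (ENSG00000115423.18, chromosome 2, 84516455 to 84819589, plus strand) encodes an inner arm heavy chain. WT had 42, 47 and 38 counts of it, and THUMPD1 KO had 375, 382 and 298. This corresponds to 0.997, 1.20 and 1.02 CPM in WT and to 9.65, 8.66 and 9.25 CPM in THUMPD1 KO. The lowest THUMPD1 KO library was thus far above the highest WT library, and the spread within a genotype was small, with a coefficient of variation of 10.4% in WT and 5.41% in THUMPD1 KO. The ratio of the means was 8.57, and the log2 fold change was 3.02 (SE 0.14). Ordered from the largest increase in THUMPD1 KO downward, this was rank 13 of the 15088 genes tested. Of these genes, 1.92% differed by 1 or more on the log2 scale in either direction. DNAH6 passed the filter with WT libraries close to 1 CPM, and when at least 1 CPM was required in all 6 libraries it was not tested. Its span contains the pseudogenes DUXAP1 and LDHAP7, which had at most 1 and 1.15 counts in any library.

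**Figure D1:**
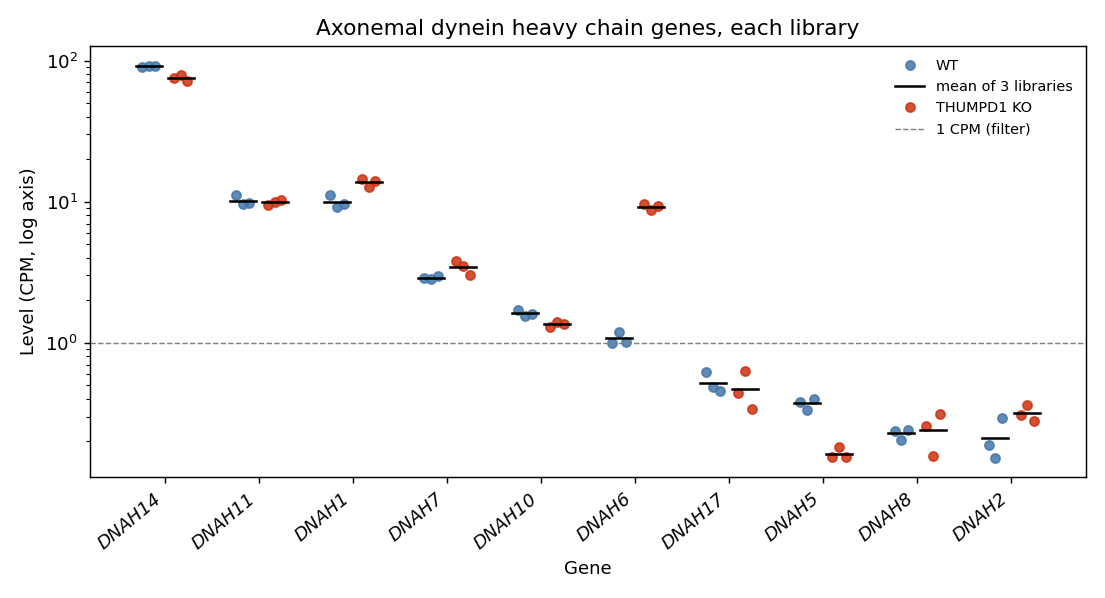
Level of each of the 10 axonemal dynein heavy chain genes in CPM on a log axis, by library (points: 3 WT and 3 THUMPD1 KO libraries; bars: means; dashed line: 1 CPM). DNAH6 moves from 1.07 to 9.19 CPM on average, while the ratio of the mean levels of the other genes lies between 0.441 (DNAH5) and 1.49 (DNAH2).

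The other inner arm members differed far less. DNAH1 (ENSG00000114841.17, chromosome 3, 52316319 to 52400492), an inner arm chain needed for sperm flagella, had 11.2, 9.17 and 9.69 CPM in WT and 14.57, 12.72 and 14.03 CPM in THUMPD1 KO. All THUMPD1 KO libraries were above all WT libraries, with a log2 fold change of 0.45 (SE 0.081). DNAH7 (ENSG00000118997.14, chromosome 2, 195737703 to 196068837), another inner arm chain, had 2.87, 2.83 and 2.98 CPM in WT and 3.81, 3.52 and 3.04 CPM in THUMPD1 KO. Its genotypes did not overlap either, but the lowest THUMPD1 KO library lay just above the highest WT library, and the log2 fold change was 0.21 (SE 0.13). DNAH1, DNAH6 and DNAH7 were the 3 members higher in THUMPD1 KO without overlap, and the same 3 held the inverted repeat in the window searched. Both were seen in these same 10 genes and were not tested against each other. The members were chosen with the difference of DNAH6 known, and the letters and spacing after the windows had been looked at. Nothing is therefore read from this match. DNAH10 (ENSG00000197653.15, chromosome 12, 123762188 to 123935720) and DNAH2 encode the heavy chain pair of inner arm f. DNAH10 had 1.71, 1.56 and 1.61 CPM in WT and 1.29, 1.41 and 1.37 CPM in THUMPD1 KO, so that every THUMPD1 KO library was lower, with a log2 fold change of -0.38 (SE 0.16). With library sizes alone in place of quantile normalization the DNAH10 value was -0.26. Relative to library size its ratio was 0.832, and the exact 95% interval, for counting error only, was 0.669 to 1.033 and included 1.

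DNAH14 (ENSG00000185842.15, chromosome 1, 224896262 to 225399292), an inner arm chain with little known function, was by far the most counted member. Its level was 90.3, 92.2 and 92.2 CPM in WT and 74.9, 78.6 and 72.0 CPM in THUMPD1 KO. All THUMPD1 KO libraries were below all WT libraries, with a ratio of 0.821 and a log2 fold change of -0.29 (SE 0.047). DNAH14 had the smallest standard error of the 10 genes and the highest counts, 2321 to 3803 per library. The counts are per gene, and 20 transcripts are annotated for DNAH14 in GENCODE 44, so full-length and shorter transcripts cannot be told apart.

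Of the outer arm members, DNAH11 alone passed the filter. DNAH11 (ENSG00000105877.18, chromosome 7, 21543039 to 21901839), a heavy chain of the proximal part of airway cilia, had 11.1, 9.60 and 9.82 CPM in WT and 9.52, 9.98 and 10.2 CPM in THUMPD1 KO. The genotypes overlapped, and the log2 fold change was -0.039 (SE 0.083), with values from -0.072 to 0.015 over all settings tried. Across its 3′ end DNAH11 overlaps CDCA7L on the opposite strand, which was itself lower in THUMPD1 KO (log2 fold change -0.31, limma-voom adjusted p = 9.72e-04). How strand was handled in the counting is not given in the sources used here, so reads of the overlapping parts of DNAH11 and CDCA7L, of DNAH10 with CCDC92 and DNAH10OS, and of DNAH17 with PGS1 and DNAH17-AS1 cannot be told apart with certainty. Pseudogenes inside other members were counted low, PPP2R5CP in DNAH1 at 10.2 to 30.1 counts per library and E2F3P2 in DNAH7 at 3 to 13.

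The 4 members below the filter were counted in every library, at 5 to 28 counts. DNAH5 (ENSG00000039139.9, chromosome 5, 13690328 to 14011818), the outer arm chain most often mutated in primary ciliary dyskinesia, had 16, 13 and 15 counts in WT and 6, 8 and 5 in THUMPD1 KO. Relative to library size this was a ratio of 0.445 (exact 95% interval 0.245 to 0.777, for counting error only), and the genotypes did not overlap. DNAH2 (chromosome 17, 7717744 to 7833742), the partner of DNAH10, had 8, 6 and 11 counts in WT and 12, 16 and 9 in THUMPD1 KO, a ratio of 1.52 (interval 0.893 to 2.64). DNAH8 and DNAH17 encode outer arm chains of the sperm flagellum. DNAH8 (chromosome 6, 38715311 to 39030792) had 27 counts in each genotype, and DNAH17 (chromosome 17, 78423697 to 78577396) had 62 in WT and 56 in THUMPD1 KO, with intervals of the ratio of 0.581 to 1.82 and 0.636 to 1.36. For DNAH2, DNAH8 and DNAH17 the libraries of the genotypes overlapped, and a difference within these intervals was not detectable at this depth.

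Over the 10 members, 5 had a higher and 5 a lower mean CPM in THUMPD1 KO. In 6 of them the genotypes did not overlap, 3 in each direction, and 5 of these 6 were among the 6 genes that passed the filter, where the share over all genes tested is 42.2% (24.5% higher and 17.6% lower in THUMPD1 KO). Of the 6 members that passed, DNAH1, DNAH6 and DNAH14 had an adjusted p under 0.05, against 26.7% of all genes tested; the choice of the members used this comparison, and nothing is read from these counts. The median log2 fold change of the 6 was 0.083. The spread among libraries of a genotype was near or below what counting alone gives for most members. It exceeded it most for DNAH14 in THUMPD1 KO (coefficient of variation 4.35%, counting 1.86%) and for DNAH1 in WT (10.6%, counting 5.02%), where WT replicate 1 was highest. DNAH3, DNAH9 and DNAH12, the other axonemal heavy chain genes, had 18, 0 and 10 counts summed over the WT libraries and 17, 1 and 23 over the THUMPD1 KO libraries. A count of 0 allows up to 0.0712 to 0.0805 CPM in a WT library at a limit of 3 counts. DNAH3 lies on chromosome 16, from 20933111 to 21159441, in the neighbourhood of THUMPD1.

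To compare levels between genes, CPM were divided by the length of all annotated exons of a gene, 13.5 to 24.8 kb for the members. In WT the order was led by DNAH14 at 4.65 CPM per kb ± 0.057 (SD, n = 3), followed by DNAH1 (0.722 ± 0.076) and DNAH11 (0.630 ± 0.050), whose library ranges overlapped. DNAH7 (0.136), DNAH10 (0.1001) and DNAH6 (0.0793) came next, each separated from its neighbours in the order by all libraries, then DNAH17 (0.0322). DNAH5, DNAH8 and DNAH2, at 0.0150, 0.0148 and 0.0126 CPM per kb, were not separated from each other. In THUMPD1 KO the order of the leading genes was DNAH14 (3.82), DNAH1 (0.993), DNAH6 (0.680), DNAH11 (0.613), DNAH7 (0.162) and DNAH10 (0.0833), so DNAH6 passed from the 6th to the 3rd place (ranks 6 and 3), and DNAH5 went from rank 8 to rank 12 of the 13 axonemal genes. Scaled by coding length the ranks were the same, but DNAH6 (0.737 CPM per coding kb) and DNAH11 (0.731) then overlapped in THUMPD1 KO. Among protein-coding genes, the length-scaled level of DNAH14 was at percentile 63.6 in WT and 60.1 in THUMPD1 KO, and that of DNAH6 at percentile 31.3 and 42.3. For scale, the heavy chains of the cytoplasmic dyneins, DYNC1H1 for retrograde transport along microtubules and DYNC2H1 for transport inside cilia, stood at 18.1 and 21.5 CPM per kb in WT.

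**Figure D2:**
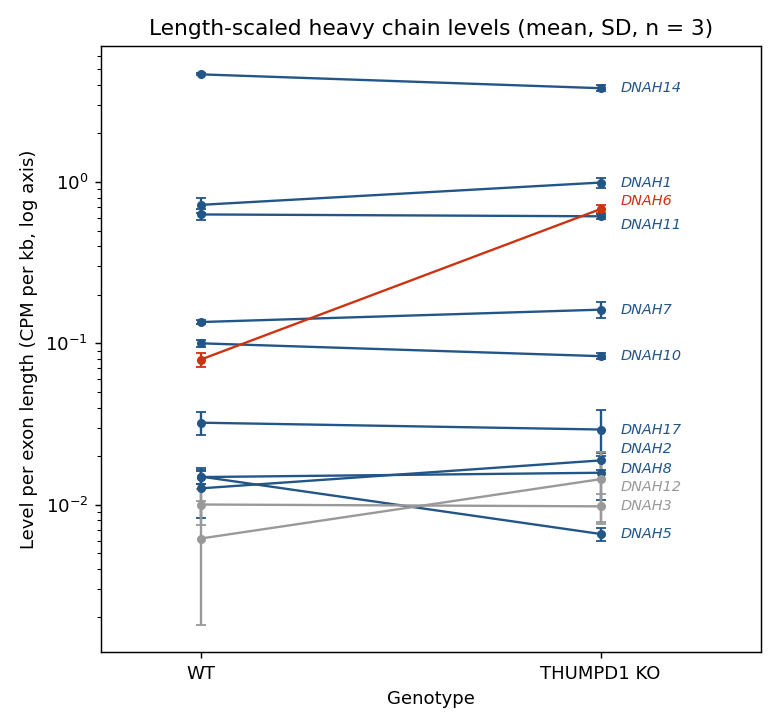
Level per exon length (CPM per kb, log axis) of 12 axonemal heavy chain genes in WT and THUMPD1 KO, as means with SD over 3 libraries (red: DNAH6; blue: the other listed genes; grey: DNAH3 and DNAH12; DNAH9, at 0 in WT, is left out). The line of DNAH6 crosses those of DNAH10, DNAH7 and DNAH11.

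The summed level of the 13 axonemal heavy chain genes was slightly lower in THUMPD1 KO. The sum was 119.9, 118.0 and 118.9 CPM in WT and 115.2, 116.6 and 111.2 CPM in THUMPD1 KO, with each THUMPD1 KO library below each WT library. DNAH6 made up 0.902% ± 0.1003 of the summed heavy chain counts in WT and 8.04% ± 0.529 in THUMPD1 KO (SD, n = 3 each). The share of DNAH14 went from 77.0% ± 1.51 to 65.7% ± 1.45, and that of DNAH1 from 8.42% ± 0.824 to 12.1% ± 0.990. Without DNAH14, the sum of the other 12 genes was 27.3 CPM ± 2.00 in WT and 39.2 CPM ± 1.15 in THUMPD1 KO, and without DNAH6 the sum was 117.8 CPM ± 1.04 and 105.2 CPM ± 2.99. These shares are of read counts and are not scaled by length.

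The genes around each member were compared as a measure that the choice of the members did not use. The 3 nearest tested genes on each side gave 60 genes, of which 10 were higher and 5 lower in THUMPD1 KO (limma-voom, threshold of 0.05 on the adjusted p). These 15 of 60 stand beside the 26.7% of all genes tested. With the replicate number as a block 23 were called, against 35.1% of all genes. Of the 6 genes next to DNAH6, TRABD2A, which encodes a Wnt-directed metalloprotease, was called, and the other 5 were not. Its WT mean was below the 1 CPM of the filter, so TRABD2A was tested only because of its THUMPD1 KO libraries, and nothing is read from its call. TRABD2A (chromosome 2, 84821650 to 84907008, minus strand) ends 2.06 kb beyond DNAH6 on the opposite strand, tail to tail with it, and rose from 0.810 CPM ± 0.263 to 1.89 CPM ± 0.481 (SD, n = 3 each; log2 fold change 1.10, SE 0.27, limma-voom adjusted p = 0.0116). TMSB10 lies within the span of TRABD2A on its opposite strand and was counted at 128.0 CPM ± 3.77 in WT and 153.4 CPM ± 20.99 in THUMPD1 KO. TMSB10 had a log2 fold change of 0.23 (limma-voom adjusted p = 0.0651, and 0.00824 with the block). How strand was handled in the counting is not given, so reads of the overlapping parts of TRABD2A and TMSB10 cannot be told apart with certainty. SUCLG1, which lies 56.4 kb on the other side of DNAH6, was at 57.9 CPM ± 2.37 and 60.1 CPM ± 1.04, with a log2 fold change of 0.061 (SE 0.051) and no call. The next tested gene beyond SUCLG1, LRRTM4, lies 6923 kb away and had a log2 fold change of -0.24 (limma-voom adjusted p = 0.0529, and 0.0337 with the block).

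Neighbours of the other members moved in no common direction. PHF7, 10.2 kb past one end of DNAH1, rose (log2 fold change 0.34) and PPM1M, 65.7 kb past the other, fell (-0.44). Beside DNAH14 WDR26 was called (0.27), in the direction opposite to that of DNAH14, and beside DNAH7 TMEFF2, 3543 kb away, was called, at 1.56. With the replicate block 8 further neighbours were called, among them NABP1 beside DNAH7 (-0.15, limma-voom adjusted p = 0.0706, and 0.0450 with the block). CCDC92, which overlaps DNAH10, fell (-0.31), like RAPGEF5 (-0.34) beside DNAH11. AFMID (0.39), BIRC5 (0.27) and PGS1 (0.23) rose on one side of DNAH17. Near DNAH2 EFNB3 fell (-0.51), near DNAH5 DAP rose (0.37), near DNAH8 ZFAND3 rose (0.30) and near DNAH10 ATP6V0A2 rose (0.17).

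**Figure D3:**
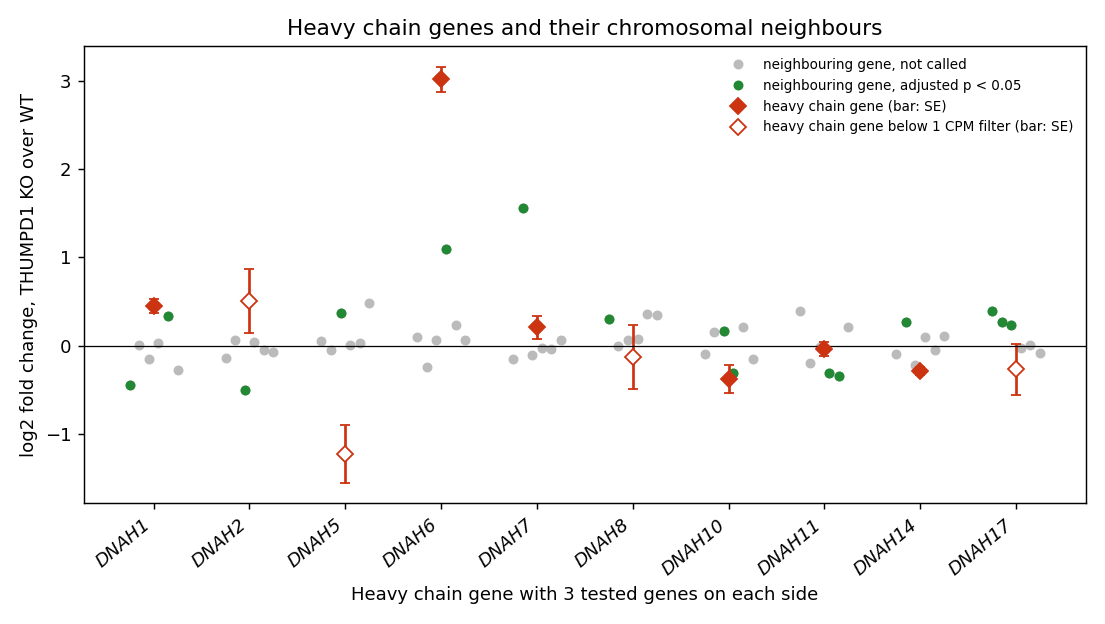
Log2 fold change of each heavy chain gene (diamonds with SE; open: below the 1 CPM filter, from the fit of all genes with a count) and of the 3 nearest tested genes on each side (dots; green: adjusted p under 0.05). DNAH6 at 3.02 lies above all its neighbours, the highest of which is TRABD2A at 1.10.

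The tested genes whose profile over the 6 libraries was most like that of DNAH6 were CRMP1, NPY1R, MIR34AHG, B3GAT1 and ZNF726. Likeness was the Euclidean distance between log2 CPM values after the WT mean of each gene was set to 0, and these 5 distances were 0.650, 0.789, 0.827, 1.03 and 1.167. They lie on chromosomes 4, 4, 1, 11 and 19, so none shares the chromosome of DNAH6. CRMP1, a cytoplasmic phosphoprotein of neurons, went from 0.535 CPM ± 0.0987 to 3.95 CPM ± 0.561. NPY1R, a neuropeptide Y receptor, went from 0.261 CPM ± 0.0872 to 1.82 CPM ± 0.251, and B3GAT1, the enzyme of the HNK-1 epitope, from 0.326 CPM ± 0.0743 to 1.95 CPM ± 0.198. With 6 libraries in 2 groups, any gene with a similar fold change comes out as alike. CRMP1, NPY1R, B3GAT1 and ZNF726 had WT means below 1 CPM, so they were tested only because of their THUMPD1 KO libraries.

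The other parts of the dynein arms and of the axoneme were represented by 5 lists with 68 genes, of which 35 were tested, 8 rose and 1 fell in THUMPD1 KO. The share called, 25.7%, was near the 26.7% of all genes tested, with 22.9% higher (13.7% of all genes) and 2.86% lower (13.0% of all genes). CFAP300 and RSPH4A, among the 8 that rose, would not have passed the filter on their WT libraries alone. The median log2 fold change of the 35 genes was 0.12, beside 0.016 for all genes. The count was between 6 and 11 over most settings and 13 with sample quality weights. Among the 35 tested genes the highest log2 fold change was 0.94.

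Among intermediate and light chains, 2 of the 5 tested rose. DNAI4, an intermediate chain of inner arm f, had 1.401, 1.20 and 1.23 CPM in WT and 2.86, 2.27 and 2.79 CPM in THUMPD1 KO (log2 fold change 0.93, SE 0.16, limma-voom adjusted p = 0.00167). The outer arm light chain DNAL1 rose by less (0.24, limma-voom adjusted p = 0.0300). Intermediate chain genes of the outer arm had few counts. DNAI1 had 3, 2 and 0 counts in WT and 6 to 8 in THUMPD1 KO, without overlap, and was not called in the fit of all genes with a count (log2 fold change 2.09, limma-voom adjusted p = 0.0750), where a fitted value at such counts depends on the prior count. DNAI2 had at most 1 count, and NME8, DYNLT4 and DYNLT5 had 0 counts throughout. Of the docking complex, which anchors outer arms, 2 of 6 genes were tested and ODAD2 fell (-0.34, limma-voom adjusted p = 0.0357).

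Of 22 assembly factor genes 16 were tested, 3 rose and none fell. These were TTC12 (log2 fold change 0.40, limma-voom adjusted p = 0.00403), DNAAF10 (0.29, 0.00821) and CFAP300 (0.76, 0.0183), the last from 0.697 CPM ± 0.0755 to 1.36 CPM ± 0.291. CFAP300 was below 1 CPM in every WT library, so it was tested only because of THUMPD1 KO, where it was high, and nothing is read from its call. RUVBL1, a chaperone ATPase with many other roles, was called with the replicate block (0.12, limma-voom adjusted p = 0.0508, and 0.0284 with the block). Of the radial spokes and central pair, 2 of 7 tested genes rose. RSPH4A, a radial spoke head gene, had 0.926, 1.35 and 0.912 CPM in WT and 2.60, 2.11 and 1.89 CPM in THUMPD1 KO (0.94, limma-voom adjusted p = 0.00635), and RSPH3 rose by 0.57 (limma-voom adjusted p = 1.342e-04). With WT libraries on both sides of 1 CPM, RSPH4A also needed its THUMPD1 KO libraries to pass the filter. STK36 was called as lower with the block (-0.17, limma-voom adjusted p = 0.0633, and 0.0459 with the block). Of the nexin-dynein regulatory complex and axonemal ruler, IQCG rose (0.35, limma-voom adjusted p = 0.0280) and 4 tested genes were not called. The calls for DNAL1, ODAD2 and IQCG were each lost in 6 or 7 of 16 settings, among them the fits without THUMPD1 KO replicate 2 or 3, and the call for CFAP300 in 2 of 15.

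**Figure D4:**
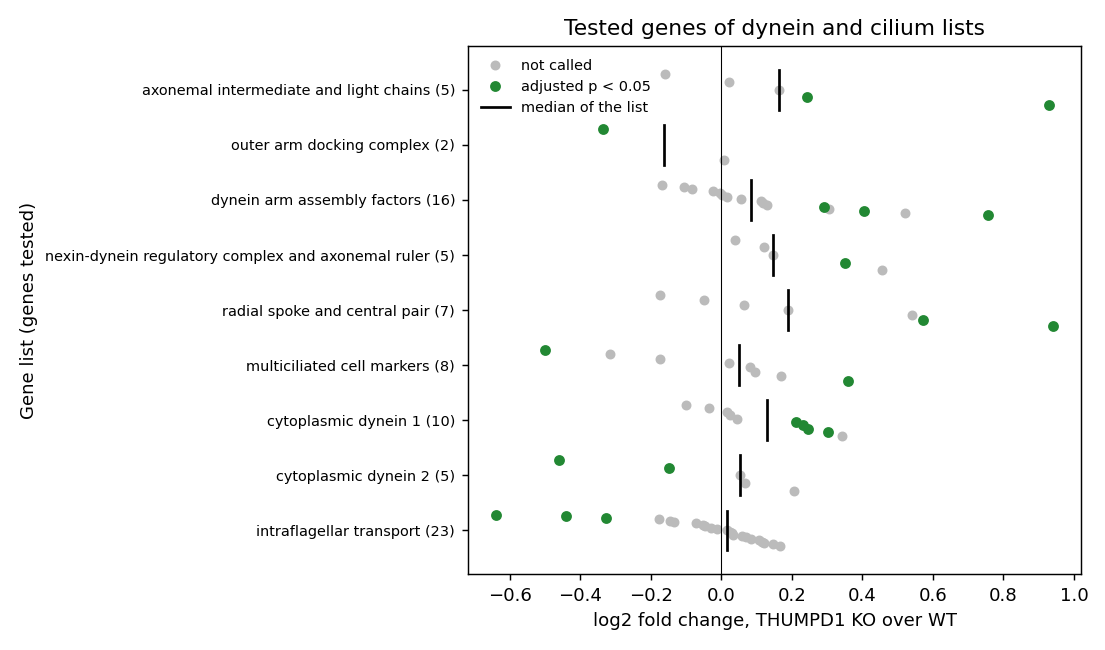
Log2 fold change of the tested genes of 9 lists of dynein, axoneme and cilium genes (dots; green: adjusted p under 0.05; bars: list medians). DNAI4 at 0.93 and RSPH4A at 0.94 are the highest values, and IFT140 at -0.64 is the lowest.

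Markers of multiciliated cells did not move together with DNAH6. FOXJ1, the master regulator of motile cilia, had 2, 5 and 3 counts in WT and 3, 3 and 1 in THUMPD1 KO, at or near 0 in all libraries. GMNC, which acts before it, had 8, 12 and 5 counts in WT and 3, 5 and 5 in THUMPD1 KO. SNTN had 0 counts and TEKT1 at most 1. MCIDAS, another of these markers, was counted well above them. Its WT libraries held 173, 105 and 127 counts, and its THUMPD1 KO libraries 109, 140 and 108. The genotypes overlapped, and MCIDAS was not called (log2 fold change -0.17, limma-voom adjusted p = 0.432). Of the 13 markers 8 passed the filter and were tested. RFX2 rose (log2 fold change 0.36, limma-voom adjusted p = 0.0101), MYB fell (-0.50, limma-voom adjusted p = 0.0111) and the other 6 were not called. These 2 of 8 stand beside the 26.7% called over all genes tested, 13.7% as higher and 13.0% as lower. The summed level of the 13 markers was 53.5 to 60.7 CPM in WT and 58.1 to 64.0 CPM in THUMPD1 KO. RFX2 and RFX3 encode factors of the family that binds the X-box. RFX2 was at 9.65 CPM ± 0.830 in WT and 12.4 CPM ± 1.10 in THUMPD1 KO, and RFX3 had a log2 fold change of 0.022 and was not called. The part of RFX2 in the values of the heavy chain genes was not tested.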

How the data were processed

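Total RNA of WT and THUMPD1 KO HEK-293T cells was sequenced as stranded, ribosomal RNA-depleted, paired-end libraries. Per the methods of the study and the labels, STAR alignment to GRCh38 was followed by RSEM, and the authors deposited its expected counts per gene, which need not be whole and are not scaled between libraries. The annotation named is GENCODE 46. Positions and lengths were taken here from GENCODE 44, in which 99.4% of the IDs were found.

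After a filter of 1 CPM in 3 or more of the 6 libraries, quantile normalization and limma-voom (limma 3.58.1, R 4.3.3) were applied with a single term, genotype. Tests were two-sided, with Benjamini-Hochberg adjustment over 15088 genes and a threshold of 0.05. Members below the filter come from the same fit on 31730 genes with a count. Intervals of ratios are exact conditional 95% intervals (scipy 1.17.1). They and the limit of 3 counts cover counting error only. Counts were rounded for edgeR 4.0.16 and DESeq2 1.42.0. The script was tested on simulated data.

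Members, gene lists and the naming rule were chosen with earlier results of these data known. Named were all heavy chain genes, at most 3 called genes per list with the smallest adjusted p, master regulators, called or overlapping neighbours and the 5 profiles most like DNAH6. Other genes (SUCLG1, TMSB10, LRRTM4, RUVBL1, STK36, RFX3, NABP1, TTC26, DNAI1, DNAI2, SNTN, TEKT1, the genes listed at 0, and DNHD1) were named after their values were seen. Replicate numbers were taken to pair the libraries only in the fits with the replicate block. The reason was that deviations from the genotype means over 14202 genes correlated at 0.274, 0.236 and 0.124 for numbers 1, 2 and 3. For different numbers the correlations were -0.28 to 0.105, so number 3 was hardly set apart. The labels do not say what the numbers mark, and the pairing remains uncertain.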

Additional observations from a re-analysis of the deposited data

How the results depend on the processing

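Alternatives were TMM or plain library sizes, other CPM filters or none, sample quality weights, the replicate block, edgeR, DESeq2 and each library left out in turn. Log2 fold changes of the members kept their sign under every alternative run, except DNAH8 (-0.30 to 0.16) and DNAH11 (-0.072 to 0.015). DNAH6 ranged from 2.90 to 3.10, DNAH1 from 0.40 to 0.50, DNAH14 from -0.33 to -0.26, DNAH5 from -1.32 to -1.11 and DNAH7 from 0.12 (sample quality weights) to 0.28. Single libraries moved DNAH2 from 0.51 to 0.79 (without WT replicate 3) and DNAH17 from -0.27 to -0.53 and -0.091 (without THUMPD1 KO replicates 2 and 3). For DNAH10 the value was -0.26 with library sizes alone and -0.29 with TMM library sizes, edgeR and DESeq2, which use no quantile normalization. The fits with quantile normalization gave -0.43 to -0.32, and the cause was not tested. Settings for members below the filter, on all genes with a count, were added after seeing the data. Calls over all genes numbered 4025, ranging from 2663 (without THUMPD1 KO replicate 2) to 4245 with a library left out. They were 5297 with the replicate block, 5510 with sample quality weights and 3200 without a CPM filter. Of the 60 neighbouring genes 15 were called, 23 with the replicate block and 23 with sample quality weights. Counts per gene do not separate transcripts, and the intervals of the 4 members below the filter show what their depth allows.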

Other observations

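The cytoplasmic dyneins, which share light chains with the axonemal arms, moved in small steps. Of 10 genes of cytoplasmic dynein 1, the motor for transport toward microtubule minus ends, 4 rose and none fell in THUMPD1 KO, where 13.7% of all genes tested were called as higher and 13.0% as lower. The light intermediate chain DYNC1LI2 was at 141.7 CPM ± 3.75 in WT and 177.0 CPM ± 2.87 in THUMPD1 KO (SD, n = 3 each; log2 fold change 0.30, limma-voom adjusted p = 3.318e-04). The light chains DYNLRB1 (0.25) and DYNLL2 (0.21) also rose. The heavy chain DYNC1H1 was not called (-0.035, SE 0.082). Of 5 genes of cytoplasmic dynein 2, the motor of intraflagellar transport, 2 fell. DYNC2I2, an intermediate chain, went from 58.4 CPM ± 0.529 to 42.7 CPM ± 2.58 (-0.46, limma-voom adjusted p = 1.223e-04), and the heavy chain DYNC2H1 from 322.2 CPM ± 6.04 to 295.1 CPM ± 10.6 (-0.15, limma-voom adjusted p = 0.0170). The DYNC2H1 call was lost in 3 of 16 settings.

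Of 23 genes of intraflagellar transport, which builds all cilia, 3 fell and 20 were not called, beside 26.7% called over all genes tested. With the replicate block 1 gene was also called as higher, TTC26 (0.15, limma-voom adjusted p = 0.115, and 0.0396 with the block). IFT140, a subunit of the complex for return transport, went from 29.1 CPM ± 2.75 to 18.6 CPM ± 0.522 (-0.64, limma-voom adjusted p = 1.612e-04), and CLUAP1 from 18.3 CPM ± 3.57 to 13.4 CPM ± 0.346 (-0.44, limma-voom adjusted p = 0.0138). Both lie on chromosome 16, as THUMPD1 does, and so does DYNC1LI2, which rose (0.30). A part of the shared chromosome in these values was not tested. TTC30B fell (-0.33) and has the close copy TTC30A, so the division of reads between them is uncertain. Its call was lost in 8 of 16 settings. DNHD1, a heavy chain-like gene outside the axonemal family, had 6.77, 5.92 and 6.36 CPM in WT and 8.90, 10.5 and 10.2 CPM in THUMPD1 KO, with no overlap and a log2 fold change of 0.61 (SE 0.11).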
